A study of Mus musculus with 4 samples.

Results

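Expression of the receptors for dopamine, serotonin, noradrenaline and adrenaline, acetylcholine, histamine and the opioid peptides was examined in limb and brain of mouse embryos with and without conditional ablation of the repressor Rest. Members were chosen by gene name among the non-control probes of the array: the dopamine (Drd), serotonin (Htr), adrenergic (Adra, Adrb), muscarinic (Chrm), histamine (Hrh) and opioid (Opr) receptor symbols. They came to 41 genes with 59 probes, of 27629 genes and unnamed transcripts with 41164 probes. G protein receptors made up 39 of the 41, and the other 2, Htr3a and Htr3b, encode subunits of a serotonin-gated ion channel that the name rule also takes in. Where a gene had several probes, the one brightest on average stood for it.

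Total RNA came from limb and brain at E13.5 (embryonic day). One pair of samples was labelled wild type (WT) and the other carried Rest-floxed alleles with doxycycline-inducible Cre (conditional knockout, CKO), both on a background of 129 and C57BL/6. Doxycycline is recorded from E8.5 to E13.5 for all 4 samples, WT included. The labels give the same breeding and treatment text for all samples, and which of these alleles the WT embryos carried is not given in them. The tissues in which Cre is driven, the part of Rest that is floxed and the number of embryos behind each RNA are not given in the sources used here. Each of the 4 groups had 1 array, so within a tissue the genotypes could only be compared by size, and a difference of at least 2-fold was called.

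These receptors sit in the cell membrane and pass the binding of a small transmitter or peptide to G proteins inside the cell. Receptors coupled to inhibitory G proteins lower cyclic AMP and open potassium channels, those coupled to stimulatory ones raise cyclic AMP, and a further class acts through phospholipase C and calcium. In the embryo the monoamine and cholinergic neurons of the brain are forming at this stage, while some receptors, among them adrenergic ones, also act outside the nervous system. Rest is a zinc-finger repressor that binds an element named RE1 and holds neuronal genes silent in non-neuronal cells.

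The members on which the limb comparison turned are shown here by the start of their probes, 30 of 60 bases each, with the probe's position on mm9. The probe pairs of Drd2, Oprl1 and Chrm4 are shown because the probes of a pair gave unlike sizes of difference. Drd2 on chromosome 9 has probes at 49215761 to 49215820 and at 49215047 to 49215106, both on the plus strand. The Hrh3 probe lies on chromosome 2 at 179834245 to 179834304, on the minus strand. Oprl1 has probes on chromosome 2 at 181455275 to 181455334 and at 181450549 to 181450608. Chrm4 has probes on chromosome 2 at 91768397 to 91768456 and at 91768778 to 91768837. Whether a probe lies in a coding exon or a UTR was not analysed here.
Drd2, brighter probe: ccaactctagtgtgaatccctactttccat
Drd2, other probe: atcctgaatatacactgtgactgcaacatc
Hrh3: acacctgggaggaatgctttgcctcgtcct
Oprl1, brighter probe: agagtcgataccttggagatatattgttgg
Oprl1, other probe: ccttcctgccccttggactcaaggtcacca
Chrm4, brighter probe: gaaccctcaacccagcctccaagtggtcca
Chrm4, other probe: ccactttcaaaaagaccttccgccaccttt

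Promoters were read from RefSeq on GRCm38.p6, in windows of 300 bases that lie mostly before each gene's start. A promoter was found for 31 of the 41 members, 43 windows in all. They were searched on both strands for the letters TTCAGCACC (the left part of RE1), GGACAG (its right part) and GGGCGG (a GC box). The left part was in 0 of the 43 windows, against 0.371% of all 32851 promoters. The right part was in 12, or 27.9%, against 22.2% of all promoters, and the GC box in 23, or 53.5%, against 35.7%. Median GC content was 57.0% in the member windows and 52.7% over all promoters. The windows of Drd2 (chr9:49340153-49340452, plus strand) and Hrh3 (chr2:180104358-180104657, minus strand) are printed because both genes were higher in CKO limb and both windows hold right parts and GC boxes. Capitals mark these matches, which are descriptions of the letters alone. Drd2 holds 2 right parts and 2 GC boxes, and Hrh3 holds 1 right part and 5 GC boxes, 2 of which overlap each other. None of the 3 Oprl1 windows held any of these letters. The right part was also in windows of Chrm2, Drd1 and Oprm1, and of Chrm3, Drd5, Htr1d, Htr2a, Htr5a and Htr6, which were measured on no array. None of these genes was called higher in CKO limb.
Drd2 promoter: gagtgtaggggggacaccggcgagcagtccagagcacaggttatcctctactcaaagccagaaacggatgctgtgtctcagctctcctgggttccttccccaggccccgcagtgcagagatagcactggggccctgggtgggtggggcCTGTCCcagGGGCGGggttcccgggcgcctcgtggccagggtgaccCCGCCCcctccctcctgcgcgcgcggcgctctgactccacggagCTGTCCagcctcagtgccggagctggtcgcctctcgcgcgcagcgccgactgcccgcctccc
Hrh3 promoter: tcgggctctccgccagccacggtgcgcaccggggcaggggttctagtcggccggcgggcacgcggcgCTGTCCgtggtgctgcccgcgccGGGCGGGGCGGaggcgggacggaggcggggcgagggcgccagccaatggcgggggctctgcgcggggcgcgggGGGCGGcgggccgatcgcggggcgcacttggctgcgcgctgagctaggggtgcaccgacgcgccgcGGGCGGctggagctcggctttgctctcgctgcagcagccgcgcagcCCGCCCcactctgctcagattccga

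Spots well above background, by the scanner software's own call, made up 62.7% (WT) and 68.6% (CKO) in limb, and 64.5% (WT) and 70.7% (CKO) in brain. Both CKO arrays therefore measured more dim probes than the WT array of the same tissue. All log2 values are relative to the array's own 75th percentile of signal, which is 0. Where 4 values follow each other without labels, the limb values come first and WT precedes CKO in each tissue. Technical error came from 245 probes with 10 spots an array: the median SD of a CKO minus WT difference between single spots was 0.31 in limb and 0.34 in brain for probes below -5, 0.11 and 0.13 from -5 to -3, 0.05 and 0.06 from -3 to 0, and 0.03 in both above 0. All 3 probes of the targeted gene gave lower signal in both CKO samples, though a probe outside the floxed part would check nothing. Rest at the probe starting at 77709928 on chromosome 5 (mm9) was at 2.41 in WT and -1.56 in CKO limb, 15.7-fold lower, and at -0.16 in WT and -3.73 in CKO brain, 11.9-fold lower. The probe starting at 77715162 was 4.03-fold lower in limb and 1.88-fold lower in brain, and the one starting at 77711857 was 17.2-fold and at least 6.60-fold lower. The tissue labels matched their markers in WT: summed muscle markers stood at 155 times the 75th percentile in limb and 2.43 in brain, and summed neuron markers at 2.28 in limb and 201 in brain.

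Of the 41 members, 29 were well above background on at least 1 array, or 70.7%, close to the 72.3% of all genes. On all 4 arrays it was 9 members, or 22.0%, against 56.6% of all genes. In limb 10 members were measured in WT and 17 in CKO, and in brain 22 in WT and 26 in CKO. The 9 measured everywhere were Adra1b, Adra1d, Adra2a, Adrb1, Chrm1, Chrm4, Drd3, Drd4 and Oprl1. The 12 measured on no array were Adrb3, Chrm3, Drd5, Hrh2, Hrh4, Htr1d, Htr2a, Htr3b, Htr4, Htr5a, Htr6 and Oprd1, with levels from -8.41 to -5.42, and for them background sets only an upper bound. By family, 8 of 9 adrenergic, 4 of 5 dopamine, 4 of 5 muscarinic, 3 of 4 opioid, 2 of 4 histamine and 8 of 14 serotonin members were measured somewhere. No serotonin or histamine member was measured on all 4 arrays.

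**Figure D1:**
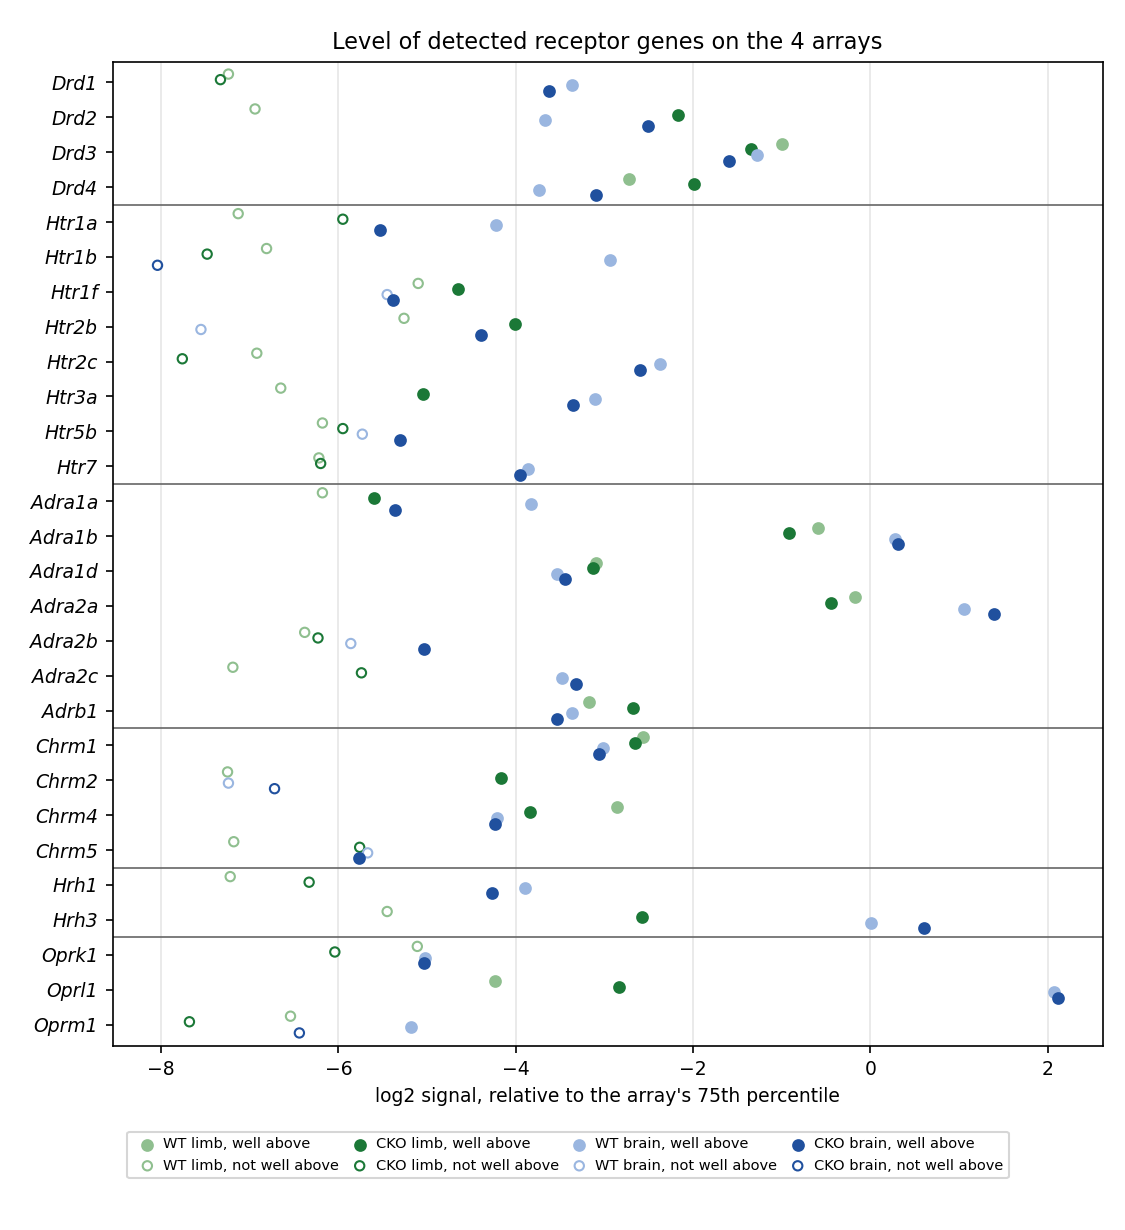
Level of receptor genes measured on at least 1 array, 1 point per array, on a log2 scale relative to the array's 75th percentile. Filled points were well above background and open points were not; lines part the families, and points of Hrh3 and Oprl1 in brain lie far to the right of those in limb.

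The limb comparison asked which of these receptors differ with loss of Rest where most cells are not neurons. A dopamine, a histamine and an opioid-family receptor were higher in CKO limb: Drd2, the inhibitory dopamine receptor that also serves as autoreceptor on dopamine neurons, Hrh3, the inhibitory histamine receptor of neurons, and Oprl1, the receptor for nociceptin. In limb 17 members could be compared, and 3 were higher by 2-fold or more, where 2.49% of all genes compared were. At least 2-fold lower were 0, where 2.16% were. Members measured in CKO limb and not in WT limb, Drd2 and Hrh3 among them, entered through CKO limb and could not come out lower. Of the 10 members measured on both limb arrays, 1 was higher and 0 were lower. Over the 17 members compared, bounds included, the median difference was 0.0, and over all 18451 genes compared, bounds included, it was -0.02. Over the 10 members measured on both limb arrays it was -0.07. In bulk tissue a change in the number of cells of a type and a change in RNA per cell cannot be told apart.

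Drd2 was at -6.94 in WT (not well above background) and -2.17 in CKO limb, and at -3.67 in WT and -2.51 in CKO brain. CKO limb was thus the highest of the 4 arrays and WT limb the lowest. The difference in limb was at least 6.86-fold, and CKO limb stood 2.83-fold above WT brain. The other Drd2 probe, whose start lies 714 bases away, was at -6.87, -3.98, -5.01 and -4.59. There the limb difference was at least 1.96-fold and CKO limb was 2.04-fold above WT brain, so both probes put CKO limb above WT brain. At the other probe WT limb and WT brain had no order. The comparison of CKO limb with WT brain was chosen after the values had been seen.

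Hrh3 was at -5.45 in WT (not well above background) and -2.58 in CKO limb, and at 0.01 in WT and 0.60 in CKO brain. It was at least 5.16-fold higher in CKO limb than in WT limb. Both brain arrays stayed above both limb arrays, with WT brain 6.02-fold above CKO limb. Hrh3 has a single probe on the array.

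Oprl1 was measured on all 4 arrays, at -4.23 in WT and -2.84 in CKO limb, and at 2.07 in WT and 2.11 in CKO brain. It was 2.63-fold higher in CKO limb and stayed far below brain, with WT brain 29.9-fold above CKO limb. Its other probe, starting 4726 bases away, was nearly level on all arrays, at -1.62, -1.65, -1.65 and -1.75. The Oprl1 difference therefore rests on 1 of its 2 probes, and with the mean of both probes it was 0.68 log2, under the 2-fold limit. With normexp background correction it was 0.64, also under the limit.

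**Figure D2:**
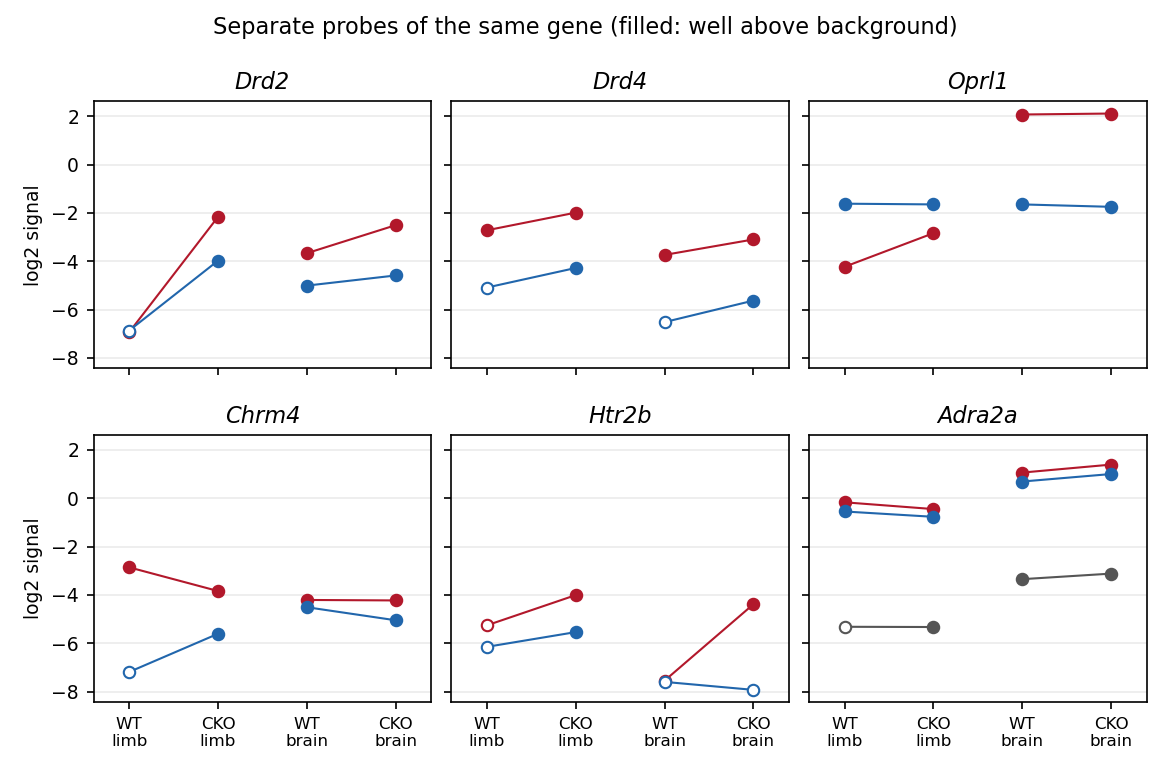
Log2 signal of each separate probe of 6 receptor genes on the 4 arrays, 1 colour per probe, with lines joining WT to CKO within a tissue. Both Drd2 probes were higher in CKO limb; 1 Oprl1 probe was higher there by 1.40 and the other was flat, and the brighter Chrm4 probe was lower in CKO limb.

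Other limb members lay inside the 2-fold limit. Chrm4, an inhibitory muscarinic receptor, was at -2.86 in WT and -3.84 in CKO limb, and at -4.21 in WT and -4.23 in CKO brain, so at this probe WT limb was the highest. It was 1.97-fold lower in CKO limb, just under the limit. The other Chrm4 probe, 381 bases away, was at -7.19 in WT (not well above background) and -5.61 in CKO limb, and at -4.51 in WT and -5.05 in CKO brain. It gave no order between the limb arrays and ranked the tissues the other way round, with brain above limb. Chrm2, the inhibitory muscarinic receptor of heart and smooth muscle, was measured on CKO limb alone, at -4.17 against -7.25 in WT limb, which bounds the difference at 1.71-fold or more. Htr2b, a serotonin receptor of connective tissue and heart that acts through phospholipase C, was measured on both CKO arrays and neither WT array, at -4.01 in CKO limb and -4.39 in CKO brain against -5.26 and -7.55. Its bounds were at least 1.91-fold in limb and at least 1.96-fold in brain. The other Htr2b probe gave no order between the limb arrays, at -6.15 in WT (not well above background) and -5.54 in CKO. It was not well above background in either brain.

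Drd4, an inhibitory dopamine receptor, was at -2.72 in WT and -1.99 in CKO limb, and at -3.74 in WT and -3.10 in CKO brain. CKO was above WT in both tissues, 1.66-fold in limb and 1.57-fold in brain. Its other probe was at least 1.59-fold higher in CKO limb. In brain that probe gave no order, at -6.52 in WT (not well above background) and -5.63 in CKO. Drd3, of the same subfamily, was at -1.0, -1.35, -1.28 and -1.59, so CKO was below WT in both tissues.

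Drd2, Hrh3 and Oprl1 all belong to the class that couples to inhibitory G proteins, a grouping made after their values had been seen. The class has 20 members, 9 of them compared in limb with these 3 higher, and 15 compared in brain with 1 higher and 3 lower. Of the 10 members that act through phospholipase C, 5 were compared in limb with 0 apart and 8 in brain with 1 lower. Of the 9 that couple to stimulatory G proteins, 2 were compared in limb and 4 in brain with 0 apart. Of all genes compared, 2.49% were higher and 2.16% lower in limb, and 1.37% higher and 1.22% lower in brain. With so few members the counts cannot tell whether the classes differ, and this was not tested.

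**Figure D3:**
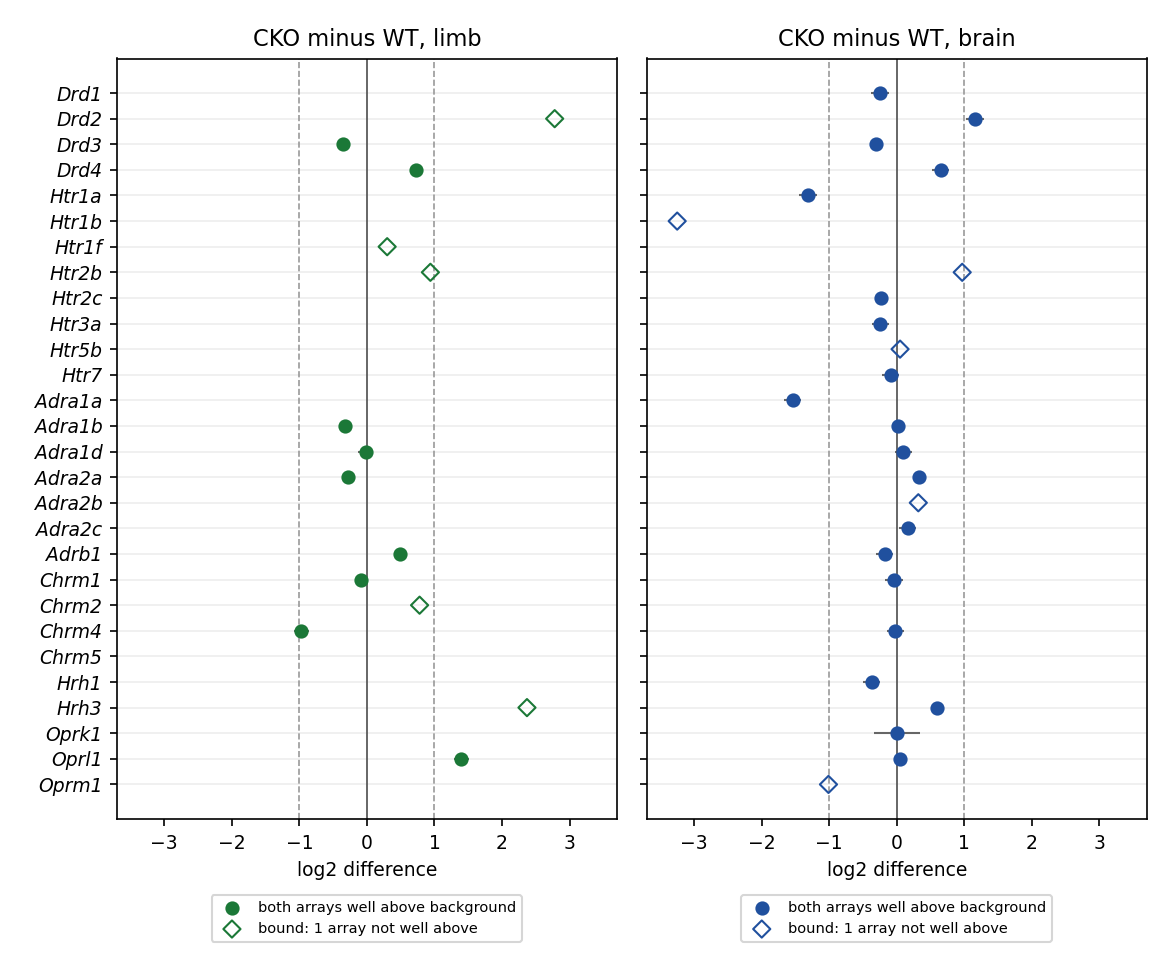
CKO minus WT difference (log2) of detected receptors in limb (left) and brain (right), with 2-fold marked by dashed lines. Points were measured on both arrays and their bars are the technical spot SD; diamonds are bounds, and bounds with no order are not drawn.

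Genes that act with the receptors were described from context lists. Beside the limb counts of these lists and those below, 2.49% of all genes compared in limb were higher and 2.16% lower. Whether any list differs from these shares was not tested. Among 28 G protein subunits, all compared in limb, 1 was at least 2-fold higher and 0 lower: Gnao1, the inhibitory subunit abundant in neurons, went from -4.70 in WT limb to -1.96 in CKO limb, 6.67-fold higher. Of 23 receptor kinases, arrestins and RGS proteins compared, 2 were higher and 0 lower, both RGS proteins that speed the shut-off of inhibitory G proteins: Rgs7 by 4.29-fold and Rgs17 by 2.78-fold. Of 9 adenylyl cyclases and receptor-gated potassium channels compared, 0 were 2-fold apart, with Adcy5 at -0.48 log2. In brain 0 members of these lists were 2-fold apart.

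Among other G protein receptors of neurons, 29 were compared in limb, 4 were higher and 0 lower. Adcyap1r1, the receptor for the peptide PACAP, was 4.22-fold higher, and the corticotropin-releasing hormone receptors Crhr2 and Crhr1 were higher by 2.76-fold and by at least 3.59-fold. Of 11 nicotinic acetylcholine receptor subunits compared, 2 were higher and 0 lower. Chrnb2 was at -7.15 in WT limb, not well above background, and 0.13 in CKO limb, at least 33.8-fold higher, beside 0.75 in WT brain. Chrna4, which pairs with it in the main brain form, was 3.46-fold higher. Crhr1 and Chrnb2 are bounds and were named after their values had been seen.

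On the side of the transmitters, 14 of 17 genes of monoamine synthesis, transport and breakdown were compared in limb, with 1 higher and 2 lower. The vesicular transporter Slc18a1 was 2.32-fold higher in CKO limb. Hdc, which makes histamine, went from 1.39 to -0.03, 2.68-fold lower, and Maob, which breaks down monoamines, was 2.41-fold lower. None of 3 acetylcholine genes, 4 opioid precursors and 7 regulators of dopamine and serotonin neurons compared in limb was 2-fold apart. Among these, the regulator Gata2 was at -0.73 and the opioid precursor Pomc at 0.68 log2.

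Markers of cell types moved with the limb comparison. Of 8 neuron markers, 5 were at least 2-fold higher in CKO limb and 0 lower, with a median of 2.17 log2: Tubb3 by 6.19-fold, Stmn2 by 7.15-fold, Rbfox3 by 3.25-fold, Elavl3 by at least 25.8-fold and Snap25 by at least 66.1-fold. Their summed level, in units of the array's 75th percentile, went from 2.28 to 9.5 in limb, beside 201 in WT brain. Autonomic and sensory neuron markers summed to 0.643 in WT limb and 0.650 in CKO limb, and of the 4 compared 0 were 2-fold apart. Red cell markers were lower in CKO limb for 4 of 4 (median -1.61, summed level 443 in WT and 196 in CKO). Of 6 macrophage and mast cell markers compared, 1 was lower and 0 higher, with a median of -0.45. The lower one was the mast cell protease Cpa3, 2.66-fold, going from 2.33 to 0.92. Inside the 2-fold limit were Tpsb2 at -0.65, Kit at -0.53, Csf1r at -0.36, Ptprc at -0.30 and C1qa at 0.30 log2. Of the muscle, smooth muscle and vessel, cartilage and limb mesenchyme markers compared in limb, 0 were 2-fold apart. The part of these markers in the receptor differences was not tested.

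**Figure D4:**
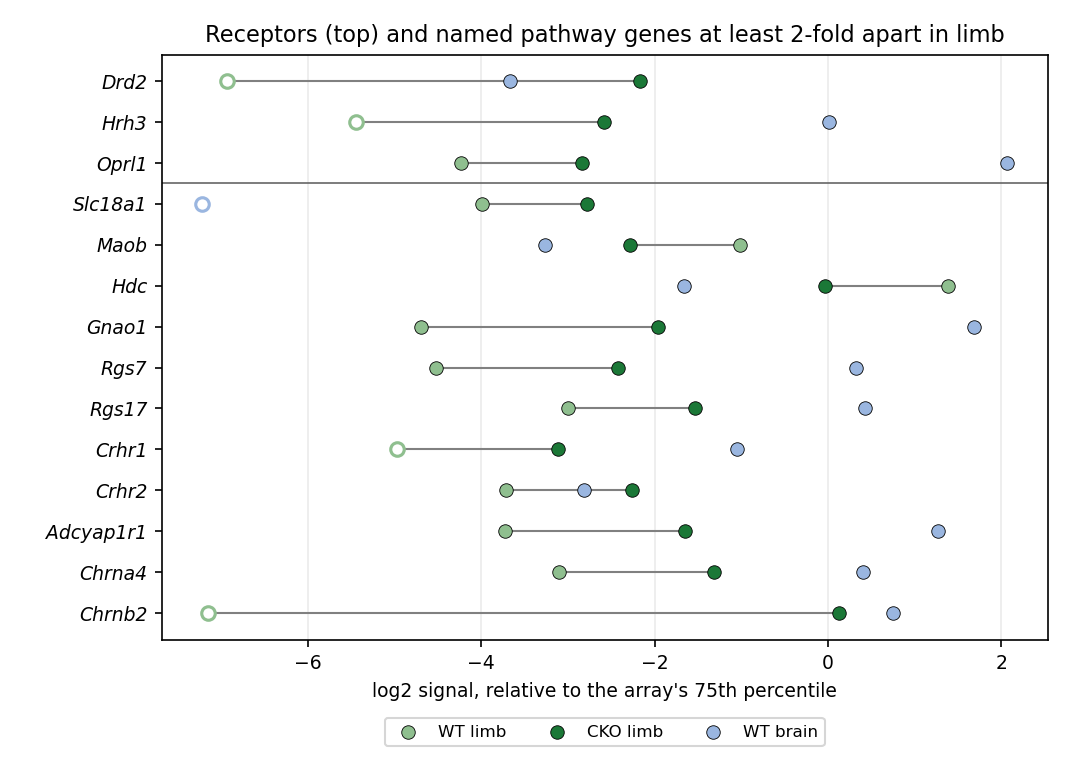
Log2 signal, relative to the array's 75th percentile, of the receptors (above the line) and of named pathway genes that were at least 2-fold apart in limb, in WT limb, CKO limb and WT brain; open points were not well above background. Drd2 in CKO limb lies above WT brain, while Hrh3, Oprl1, Gnao1 and Rgs7 lie between WT limb and WT brain.

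In brain the same question was asked of tissue in which neurons normally use these receptors. Of 28 members compared, 1 was at least 2-fold higher in CKO brain, where 1.37% of all genes compared were, and 4 were at least 2-fold lower, where 1.22% were. The higher one was Drd2. The lower ones were the serotonin receptors Htr1a and Htr1b, the adrenergic receptor Adra1a and the mu opioid receptor Oprm1. The median over the 28 members compared, bounds included, was 0.0, and over all 18946 genes compared, bounds included, it was -0.01. Over the 20 members measured on both brain arrays it was -0.03, with 1 higher and 2 lower.

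Drd2 was 2.24-fold higher in CKO brain at its brighter probe, and 0.41 log2 higher at the other, with the mean of both at 0.79. Htr1b, an inhibitory serotonin receptor of axon terminals, was measured on WT brain alone, at -2.94, against -6.81 in WT limb, -7.48 in CKO limb and -8.04 in CKO brain. It was at least 9.49-fold lower in CKO brain. Htr1b has 1 probe and 1 spot an array: on WT brain the mean of its pixels was 167.5 and the median 165.5 over a local background of 55, and its processed intensity was 117 there and 3.81 on CKO brain.

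Htr1a, the inhibitory autoreceptor of serotonin neurons, was at -7.13 in WT and -5.95 in CKO limb, and at -4.22 in WT and -5.53 in CKO brain, measured in brain alone. It was 2.47-fold lower in CKO brain. Adra1a, an adrenergic receptor that acts through phospholipase C, was at -6.18, -5.60, -3.83 and -5.36, 2.90-fold lower in CKO brain. Its other probe was measured on CKO brain alone, at -5.95, and gave no order between the brain arrays. Oprm1 was at -6.54, -7.68, -5.18 and -6.44, measured on WT brain alone, and at least 2.02-fold lower in CKO brain, while its 2 other probes were on no array well above background. All 4 genes were dim, at or below -2.94 on every array. Under normexp background correction only Htr1b kept a difference of 2-fold or more, at -1.31 log2, with Htr1a at -0.59, Adra1a at -0.79, Oprm1 at -0.46 and Drd2 at 0.63. Adra1a was at -0.77 with the mean of its probes, and Oprm1 at -0.99 with the percentile taken over probes measured on all arrays.

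Context lists were mostly level in brain, where 1.37% of all genes compared were at least 2-fold higher and 1.22% lower. Whether any list differs from these shares was not tested. Of 16 monoamine genes compared, 0 were 2-fold apart, with Th, the rate-limiting enzyme of dopamine synthesis, at -0.53 log2. Of 14 regulators of dopamine and serotonin neurons 0 were apart, with Phox2a at 0.82 log2. Chat, the enzyme that makes acetylcholine, was the 1 of 5 acetylcholine genes apart: it was measured on WT brain alone, at -3.01, against -8.29 in CKO brain, at least 9.06-fold lower. Of 37 other receptors of neurons compared, 1 was higher and 1 lower: Sstr1 by at least 2.88-fold and Npy5r by 2.60-fold. Neuron markers were level (0 of 8 apart, summed level 201 in WT and 199 in CKO brain). Of 8 autonomic and sensory markers 2 were lower, Avil by 4.15-fold among them, and the list's sum went from 5.44 to 3.55. Cartilage markers were higher in CKO brain for 4 of 5, with a summed level of 6.18 in WT and 13.4 in CKO, and limb mesenchyme markers for 3 of 5, and the muscle gene Myl1 was 4.77-fold higher. The part of these markers in the brain differences was not tested.

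Between the tissues the receptors differed more widely. In WT, 12 of 23 members compared were at least 2-fold higher in brain than in limb, where 15.8% of all genes compared were, and 2 were lower, where 18.9% were. In CKO it was 10 of 27 higher, where 15.1% of all genes were, and 3 lower, where 16.9% were. Members bright in brain and not measured in limb carry bounds. They entered through brain, so they could not come out lower there, and the shares over all genes include such bounds too. No share over all genes measured on both arrays was worked out. Of the 9 measured on both WT arrays, 2 were higher and 2 lower, with a median of -0.28, and of the 16 measured on both CKO arrays 5 were higher and 2 lower, with a median of -0.33. Adra2a, Adra2c, Drd1, Hrh1, Hrh3, Htr2c, Htr3a, Htr7 and Oprl1, 9 in all, were higher in brain in both genotypes, and Drd4 was lower in both. In WT the higher members also included Adra1a (at least 2.18-fold), Drd2 (at least 2.42-fold) and Htr1b (at least 4.01-fold), and in CKO they included Adra1b. Chrm2 was lower in CKO brain than in CKO limb by at least 4.05-fold. Under normexp, 4 members were higher and 0 lower in WT, and 5 higher and 0 lower in CKO. The WT and CKO comparisons share no array.

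Oprl1 was higher in brain by 78.8-fold in WT and by 30.9-fold in CKO at its representing probe, while its other probe was as flat between the tissues as between the genotypes. Hrh3 was at least 31.1-fold higher in WT and 9.06-fold in CKO. Htr2c, a serotonin receptor of choroid plexus and neurons, was at -6.92 in WT and -7.76 in CKO limb, and at -2.37 in WT and -2.60 in CKO brain. It was higher in brain by at least 5.98-fold in WT and at least 8.95-fold in CKO. Of its 3 probes only this brightest one was well above background on any array, and the others were at -5.9 and -7.41 in WT brain. The Htr2c difference thus rests on that probe alone. Drd1, the stimulatory dopamine receptor of the striatum, was at -7.24, -7.33, -3.37 and -3.63, with bounds of at least 2.98-fold and 4.39-fold. Neither Htr2c nor Drd1 was measured in limb of either genotype.

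The ion channel subunit Htr3a was at -6.65, -5.05, -3.11 and -3.35, measured in CKO limb and not in WT limb, with no order between the limb arrays. Its brain level was at least 3.58-fold higher in WT and 3.24-fold higher in CKO. Adra2c, an inhibitory adrenergic receptor, was at -7.19, -5.74, -3.48 and -3.32. Htr7, a stimulatory serotonin receptor, was at -6.22, -6.20, -3.86 and -3.95. Hrh1, a histamine receptor that acts through phospholipase C, was at -7.22, -6.33, -3.90 and -4.27. Adra2c, Htr7 and Hrh1 were measured on both brain arrays and on neither limb array. In WT their brain signal was higher by at least 2.78-fold, 2.13-fold and 2.07-fold, and in CKO by at least 5.37-fold, 3.51-fold and 2.80-fold.

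Adra2a, the inhibitory receptor on noradrenaline terminals, was at -0.17 in WT and -0.45 in CKO limb, and at 1.06 in WT and 1.39 in CKO brain, 2.35-fold higher in brain in WT and 3.58-fold in CKO. Its other 2 probes were also higher in both brain arrays than in both limb arrays. Adra1b, which acts through phospholipase C, was at -0.59, -0.92, 0.28 and 0.31, 1.83-fold and 2.34-fold higher in brain. Drd4 was 2.03-fold lower in WT brain and 2.16-fold lower in CKO brain. Chrm4 was 2.55-fold lower in WT brain at its brighter probe, while at its other probe brain was higher, by at least 1.36-fold in WT and by 1.48-fold in CKO.

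The remaining members measured everywhere spanned less than 1 log2 over the arrays. Adra1d was at -3.10, -3.13, -3.54 and -3.44, Adrb1 at -3.17, -2.68, -3.36 and -3.54, and Chrm1 at -2.57, -2.66, -3.02 and -3.06. The other Adrb1 probe was at -3.28, -3.53, -3.69 and -4.05, with CKO below WT in limb where the brighter probe had CKO above. The other Chrm1 probe was well above background on no array. Adra2b, Chrm5 and Htr5b were measured on CKO brain alone, Htr1f on both CKO arrays and Oprk1, the kappa opioid receptor, on both brain arrays. Between the brain arrays Chrm5 and Htr1f had no order. Adra2b was higher in CKO brain by at least 1.245-fold and Htr5b by at least 1.032-fold.

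A fit across both tissues used the 15630 genes well above background and unsaturated on all 4 arrays, the 9 members among them. In limma, with tissue as a block, 0 genes passed for genotype at an adjusted p of 0.05 (0% of genes, smallest adjusted p 0.660), and 984 genes, 2 of them members, were below 0.05 unadjusted. Those members were Drd4, at 0.69 ± 0.06 log2 (SE, adjusted p = 0.660 in limma), and Drd3, at -0.33 ± 0.05. The fit counts any difference between the tissues' genotype effects as error, and Drd2 and Hrh3 could not enter it. For tissue, limma called 7 of the 9 members, where 66.6% of all genes were called. Oprl1 was higher in brain by 5.62 ± 0.43 log2 (adjusted p = 0.00850), Adra2a by 1.54 ± 0.20 (0.0172) and Adra1b by 1.05 ± 0.12 (0.0148). Drd4 was lower by -1.06 ± 0.06 (0.00673), and Chrm1 (-0.43), Adra1d (-0.38) and Drd3 (-0.26) were also lower. Adrb1, at -0.53, and Chrm4, at -0.87, missed the threshold, with adjusted p of 0.136 and 0.103.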

How the data were processed

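Total RNA of 4 samples was labelled with Cy3 and hybridised to 1 single-colour Agilent array each. The deposited values are intensities, and the submitters' processing notes name Agilent Feature Extraction 9.5.3.1; per the file headers the processed intensity was background-subtracted and detrended within its array, with no scaling between arrays. The authors' pixel and local background intensities served the normexp alternative and the check of 1 spot.

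Control spots and outlier spots were left out, log2 was taken and each array's 75th percentile subtracted, and the spots of a probe were averaged. The 75th percentile of intensity was 777 (WT) and 927.7 (CKO) in limb, and 900.5 (WT) and 1002 (CKO) in brain. Probes were named through a RefSeq table by accession for 26933 of 41174 probes, by symbol for 5570 and by synonym for 894; the other 7777 kept the file's name. A gene entered a comparison when well above background on at least 1 of its arrays. Where 1 array was not, the difference is a bound: the bright value against the dim array's lowest signal among probes well above background, or the dim probe's own where higher. Such values are written "at least", and a bound pointing the other way was set to 0 and has no order.

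With 1 array per group, calls between groups rest on size (2-fold) and precision is limited by the number of arrays. The fit over all arrays used limma 3.58.1 in R 4.3.3 (lmFit and eBayes, Benjamini-Hochberg over all genes), with 1 residual degree of freedom. A run on simulated data, with the same genotype effect in both tissues, checked the size of the estimates and not the calls. Tables were made with Python 3.11.15, numpy 2.4.6 and pandas 2.3.3.

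The members are named, except for results that are not reported here; values on all arrays are given for those at least 2-fold apart between genotypes in a tissue, or between tissues in both genotypes, or measured on all arrays. Each context list named up to 4 members with the largest measured difference. The members, lists and rules were chosen with earlier results of these data known. Alternatives were normexp background correction (offset 50), quantile normalization, a percentile over probes measured on all arrays, the mean of a gene's probes, genes measured on both arrays and, for the fit, genes measured on at least 2 arrays.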

Additional observations from a re-analysis of the deposited data

How the results depend on the processing

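No member difference of 2-fold or more changed sign under any alternative, and 4 smaller ones did: under normexp Adra1d in brain (CKO minus WT, from 0.10 to -0.03) and Adra1a in CKO (brain minus limb, from 0.24 to -0.11), and with the mean of probes Oprl1 in brain (0.05 to -0.03) and Chrm4 in CKO (brain minus limb, -0.39 to 0.09). Of 95 member values, 93 moved by less than the technical spot SD under quantile normalization and 93 under the other percentile. It was 71 with the mean of a gene's probes and 41 under normexp, which pulls dim probes together by adding an offset. Only 15 of the 41 members have several probes, and values of the others could not move with the mean of probes. The 0 calls for genotype in limma held under all 5 alternatives to the fit. In limb, 3 receptors were higher, 2 under normexp, 2 with the mean of probes and 1 with genes measured on both arrays alone. The median with bounds was 0.0, and 0.15 over G protein receptors alone. In brain, 1 was higher, and 0 under normexp and with the mean of probes. There 4 were lower, 3 under the other percentile, 3 with the mean of probes, 1 under normexp and 2 with both arrays measured. Between the WT tissues, 12 were higher in brain, 11 under the other percentile, with the mean of probes and over G protein receptors alone. The count was 4 under normexp and 2 with both arrays measured. Lower were 2, and 3 under the other percentile, 1 under quantile normalization, 1 with the mean of probes and 0 under normexp. The WT median with bounds was 1.05, and 0.51 under normexp, 0.73 with the mean of probes and -0.28 with both arrays measured. Between the CKO tissues, 10 were higher, 9 over G protein receptors alone, 5 under normexp and 5 with both arrays measured. Lower were 3, and 2 under quantile normalization, 2 with both arrays measured and 0 under normexp. The CKO median was 0.24, and 0.0 under normexp and -0.33 with both arrays measured. The tissue fit called 7 members, 8 under normexp, and 12 when genes measured on at least 2 arrays entered. With both arrays measured, fewer genes are compared, and bounds, which can point only towards the measured array, drop out. Shares changed as well as counts: between the WT tissues 12 of 23 members were higher in brain with bounds, and 2 of 9 without. Normexp left Drd2 at 1.48 and Hrh3 at 1.16 log2 in limb. No replicate exists to be left out, and members below -5 on an array lie where spot noise is widest.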

Other observations

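Genes next to the receptors that were higher in CKO limb were read by gene order in RefSeq, after the values had been seen. Beside Oprl1 lies Myt1, a zinc-finger factor of neural precursors, at -7.12 in WT (not well above background) and -2.53 in CKO limb, and at 2.42 in WT and 2.32 in CKO brain, higher in CKO limb by at least 2.42 log2. Rgs19 and Pcmtd2, also near Oprl1, differed by -0.02 and -0.10 in limb. Around Hrh3, Ss18l1, Mtg2, Osbpl2 and Adrm1 differed by -0.03, 0.15, 0.19 and -0.04. Around Drd2, Tmprss5 was higher in CKO limb by at least 0.79 log2 and Ttc12 by 0.56, while Ankk1 was not well above background on any array.

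Some genes were well above background on 1 array alone: 153 (WT) and 452 (CKO) in limb, and 120 (WT) and 743 (CKO) in brain. Of those, 28 on WT brain were brighter than -3 log2, and Htr1b, at -2.94, is among them. The receptors on 1 array alone were Chrm2 on CKO limb, Htr1b and Oprm1 on WT brain, and Adra2b, Chrm5 and Htr5b on CKO brain.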
